A study of Homo sapiens with 6 samples.

Results

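Interferon-stimulated genes are the genes whose transcription cells raise when an interferon, a secreted antiviral signal, reaches its receptor. The 46 described here were taken by symbol from tables of 62016 genes each and span the sensors of viral RNA and DNA, the enzymes that act on double-stranded RNA, the transcription factors of the pathway and the proteins that block viral replication. A member counts as measured in a JMJD1C table when the higher of its 2 group values was at least 1 FPKM (sequenced fragments per unit of transcript length and of mapped reads). By that rule 38 of the 46 were measured in each of the JMJD1C tables. For the AML1-ETO comparison, the 43 of the 46 that the authors had tested are described.

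The RNA came from Kasumi-1, an established human acute myeloid leukemia line of myeloblast type in which the AML1-ETO fusion is expressed. Cells were infected with virus carrying JMJD1C shRNA63, JMJD1C shRNA95 or Control shRNA, and RNA was taken after 4 days, with 2 libraries in each of the 3 groups. JMJD1C belongs to the jumonji family of histone demethylases, and the study asked what its depletion does to RNA levels. A further table of the authors compares AML1-ETO shRNA with control shRNA, from 1 library each of another published series. All 3 groups of the JMJD1C experiment carry a pLKO shRNA virus made in 293T cells, and none is uninfected, so the level of these genes without virus is not measured here. The same Control shRNA libraries serve both hairpins. The tables hold 1 FPKM value per group and no value per library, so the values below are the authors' group values. The labels do not say whether the paired libraries are separate cultures. The spread between libraries that enters the p-values of the JMJD1C experiment may therefore be technical, and not that between cultures.

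Interferons bind cell-surface receptors whose kinases, JAK1 and TYK2, activate transcription factors, STAT2 among them. A complex that holds STAT2 and IRF9 binds the interferon-stimulated response element (ISRE) in the promoters of its target genes, and the response to interferon gamma uses the gamma-activated site (GAS). The products degrade viral RNA, stop its translation, trap virions or amplify the signal, and part of the set is kept at a basal level in blood cells without added interferon.

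The promoters of the members that changed, and of IFIT1 as a typical interferon target, were read to show which of them hold these elements. Windows of 300 bases (250 before and 50 after each RefSeq start, GRCh38.p14) were searched on both strands for the ISRE core GAAANNGAAA, in which N is any base. At least 1 match lay in 22 of the 36 members with a window (61.1%), against 4.38% of the 27305 genes with one, and overlapping matches were counted separately. The GAS core TTCNNNGAA lay in 11 of the 36 (30.6%), against 9.38% of all genes. In the sequences below, written 5′ to 3′ on the strand of the gene, capitals mark ISRE core matches in the first 3 and the GAS core match in IFI35; HERC6 has neither. The windows are ISG15 at chr1:1013247-1013546, HERC5 at chr4:88456869-88457168, IFIT1 at chr10:89392373-89392672, IFI35 at chr17:43006534-43006833 and HERC6 at chr4:88378602-88378901, each on the + strand.
ISG15: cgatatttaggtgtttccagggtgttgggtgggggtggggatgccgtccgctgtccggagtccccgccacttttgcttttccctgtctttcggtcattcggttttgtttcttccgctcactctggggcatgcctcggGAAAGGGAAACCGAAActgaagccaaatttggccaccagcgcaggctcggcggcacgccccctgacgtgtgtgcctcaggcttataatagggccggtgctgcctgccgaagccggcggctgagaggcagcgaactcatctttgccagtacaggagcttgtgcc
HERC5: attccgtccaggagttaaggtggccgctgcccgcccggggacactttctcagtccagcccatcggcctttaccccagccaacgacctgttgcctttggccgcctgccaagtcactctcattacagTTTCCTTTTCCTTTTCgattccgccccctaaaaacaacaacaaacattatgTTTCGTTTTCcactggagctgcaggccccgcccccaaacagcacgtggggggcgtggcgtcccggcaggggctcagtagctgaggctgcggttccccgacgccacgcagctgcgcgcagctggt
IFIT1: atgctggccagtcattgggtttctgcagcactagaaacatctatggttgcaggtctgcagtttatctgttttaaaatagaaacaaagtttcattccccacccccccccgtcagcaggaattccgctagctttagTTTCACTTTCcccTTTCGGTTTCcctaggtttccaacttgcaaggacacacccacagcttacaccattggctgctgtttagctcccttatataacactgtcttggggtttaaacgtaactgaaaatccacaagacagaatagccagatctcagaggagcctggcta
IFI35: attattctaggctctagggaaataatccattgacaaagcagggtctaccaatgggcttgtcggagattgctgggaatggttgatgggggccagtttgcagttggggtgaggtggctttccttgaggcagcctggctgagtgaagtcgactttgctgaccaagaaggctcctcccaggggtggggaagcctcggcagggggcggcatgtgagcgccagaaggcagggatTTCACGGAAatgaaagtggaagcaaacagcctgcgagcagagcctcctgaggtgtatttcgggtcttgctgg
HERC6: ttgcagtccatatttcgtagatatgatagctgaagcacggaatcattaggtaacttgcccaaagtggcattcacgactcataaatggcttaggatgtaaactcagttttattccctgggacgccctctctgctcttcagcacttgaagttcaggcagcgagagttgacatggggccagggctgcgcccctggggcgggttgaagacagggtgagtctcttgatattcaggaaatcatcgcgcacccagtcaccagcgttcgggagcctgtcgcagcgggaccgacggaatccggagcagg

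The ISG15 window holds 2 overlapping matches on the + strand, from base -113 to base -98 counted from the start. HERC5 has 3 on the - strand, of which 2 overlap between -125 and -110 and the third spans -74 to -65. IFIT1 has 2 on the - strand, from -116 to -107 and from -103 to -94. IFI35 has a GAS core match from -22 to -14 and no ISRE core match, and neither core was found in the windows of HERC6 and IFI16. HERC5 and HERC6 are neighbours on chromosome 4, and the window with matches and the window without belong to genes of 1 family. A match is a description of the letters and was not tested for binding. The name OASL is among 10 members without a window in the promoter table.

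**Figure D1:**
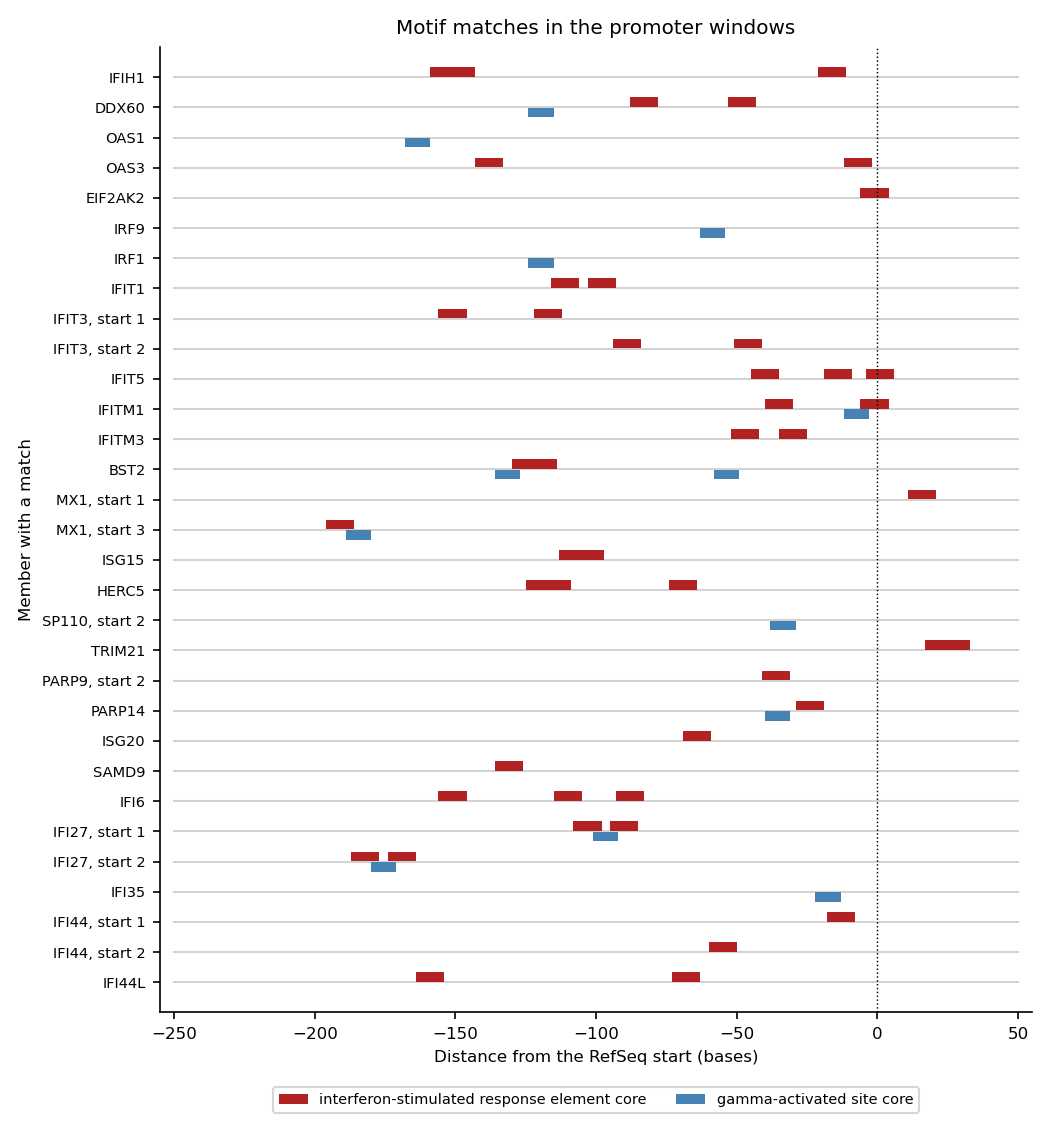
Positions of the core matches in the RefSeq promoter windows of the members that hold any; the horizontal axis is the distance in bases from the RefSeq start (dotted line), red bars stand for the ISRE core and blue bars for the GAS core, and a member with several starts has a row for each that holds a match. The ISRE matches of ISG15, HERC5 and IFIT1 lie before the start, between -125 and -65.

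JMJD1C itself was at 13.7 FPKM with shRNA63, against 30.4 FPKM in the control group, a log2 fold change of -1.15 (error 0.30, q = 0.00214) in the authors' deposited table. In the libraries labelled shRNA95 it was at 25.1 FPKM, against 29.4 FPKM in the control group, a log2 fold change of -0.23 (error 0.30, q = 0.938) in the authors' deposited table. JMJD1C mRNA was therefore lower than in the controls with shRNA63 and not detectably lower with shRNA95, and what follows for shRNA95 is a property of the libraries so labelled. By the test of the hairpins described below, the JMJD1C difference was -0.92 (error 0.42, unadjusted p = 0.029, adjusted p = 0.677) from the authors' deposited tables. It did not pass, so the hairpins are not shown to differ in their effect on JMJD1C mRNA. The error of a log2 fold change is its size divided by the authors' test statistic, and a gene was called changed at a q-value of under 0.05. From the most frequent fold change of genes with very low values, the depth was estimated at 0.79 times that of the controls with shRNA63 and 0.71 times with shRNA95. No counts were used to check this estimate. Of the myeloblast markers, ELANE was at 3745 FPKM with shRNA63 and 1128 FPKM with shRNA95, against 1143 and 1109 FPKM in the control group. ELANE and CD33 were called higher and KIT lower with shRNA63, and CD34 was called higher with shRNA95. MPO, the fifth of these markers, was listed at 0 in every group, under the test status HIDATA, which Cuffdiff gives to loci with too many fragments to process. Of 5 monocyte markers LYZ, MNDA and CTSS were called higher with each hairpin, and the summed level of the 5 was 101.1 FPKM with shRNA63, against 16.0 FPKM in the control group. With shRNA95 the sum was 119.3 FPKM, against 15.5 FPKM in the control group, while CD14 and FCN1 stayed at or under 0.152 FPKM in every group. Of 5 plasmacytoid dendritic cell markers, which belong to the blood cell that makes most interferon, only IL3RA reached 1 FPKM, and LILRA4, CLEC4C and GZMB were at or near 0. The part of the monocyte markers in the results below was not tested, and in bulk RNA fewer cells of a type and less RNA per cell cannot be told apart.

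Levels of the members spread over more than 4 orders of magnitude. The median of the 46 was 4.12 FPKM with shRNA63 against 3.48 FPKM in the control group, and 4.12 FPKM with shRNA95 against 3.37 FPKM in the control group of that table. The highest members were IFITM3, which blocks virus entry at endosomes, the DNA sensor IFI16 and the RNA-editing enzyme ADAR. IFITM3 was at 116.1 FPKM with shRNA63 against 112.5 FPKM in controls, and at 149.5 FPKM with shRNA95 against 109.1 FPKM in controls. ADAR was at 82.1 FPKM with shRNA63 against 90.98 FPKM in controls, and at 82.8 FPKM with shRNA95 against 88.2 FPKM in controls. PML, BST2, IFI6, IFITM1 and EIF2AK2 followed in the controls, between 19.7 and 36.4 FPKM. The classical interferon targets MX1, MX2, OAS1, OAS2, OAS3, IFIT5, IFI27 and IFI44L stayed under 1 FPKM in every group and were not counted as measured. MX1, a GTPase that traps influenza nucleocapsids, was the nearest of them in the shRNA63 table, at 0.640 FPKM with shRNA63 against 0.417 FPKM in controls. In the shRNA95 table it was IFI27, at 0.579 FPKM with shRNA95 against 0.404 FPKM in controls. IFI44, just inside the limit, was at 0.619 FPKM with shRNA63 against 1.33 FPKM in controls. IFI44L was listed at 0 with both hairpins, and OAS1 with shRNA95.

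**Figure D2:**
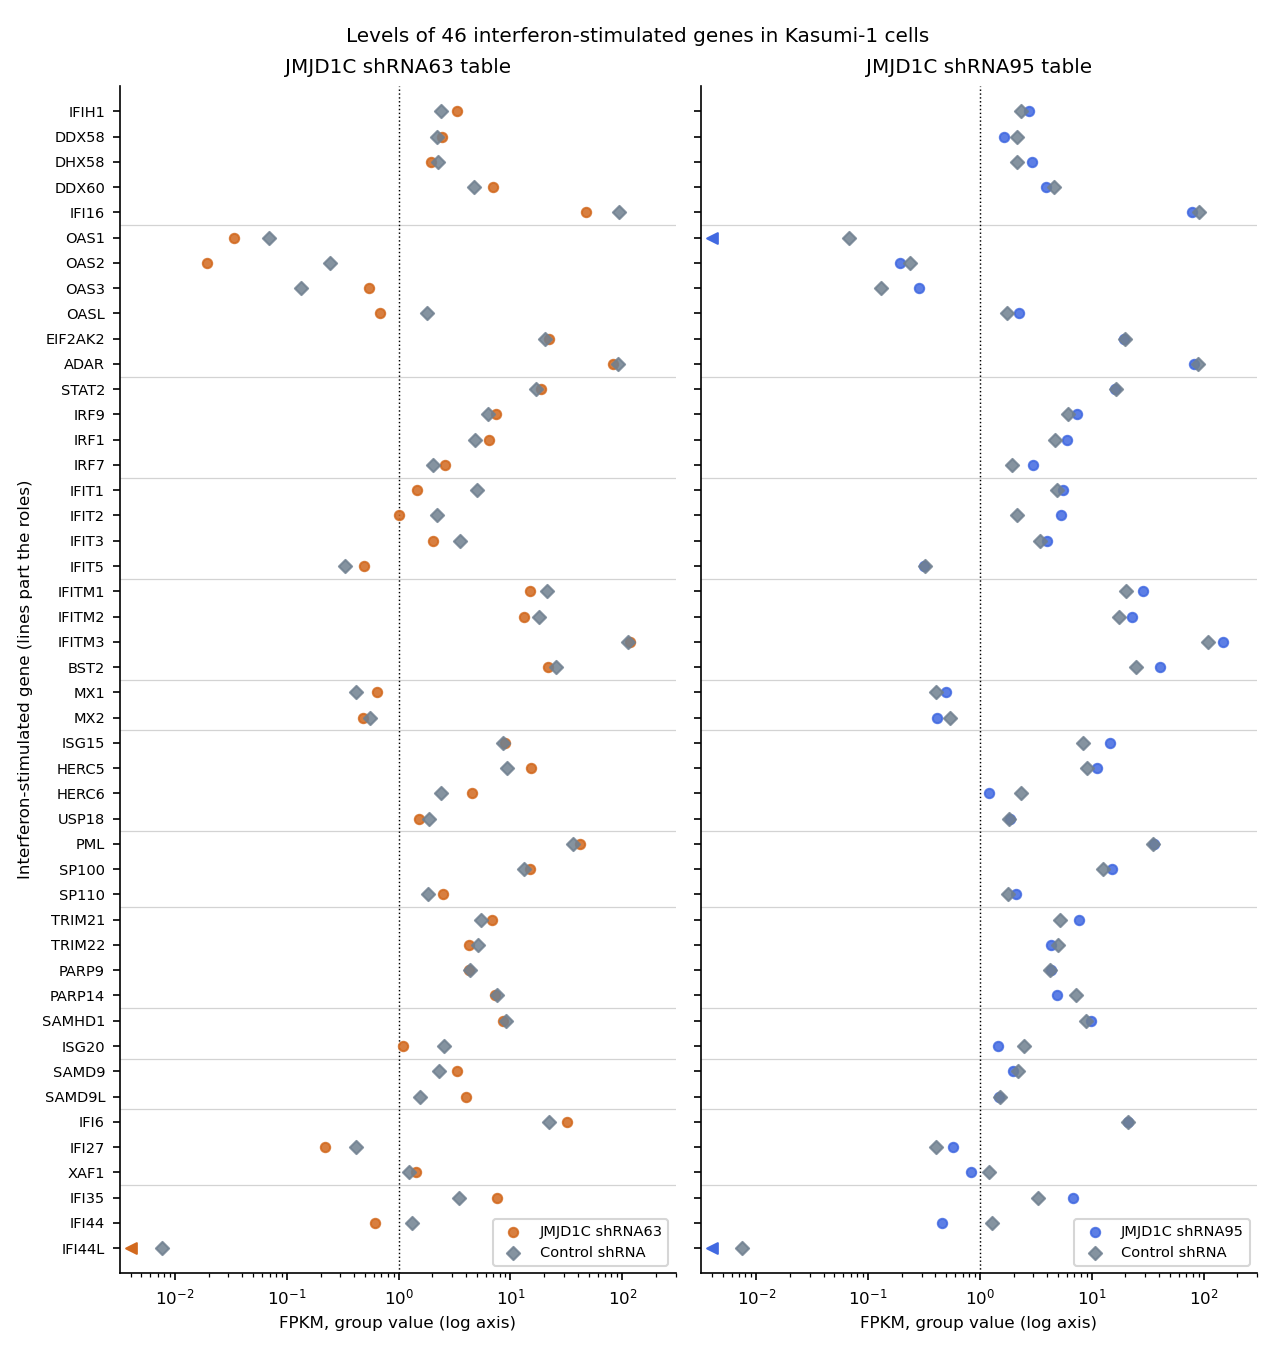
FPKM of all 46 members on a log axis, by role, in the shRNA63 table (left) and the shRNA95 table (right); circles are the hairpin's group value, diamonds that of Control shRNA, arrowheads a value listed at 0, and the dotted line marks 1 FPKM. IFITM3, IFI16 and ADAR lie highest in every group, and IFI44L lowest, level with OAS1 at 0 in the shRNA95 group.

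With shRNA63, 4 of the 38 measured members changed, 2 in each direction. The share called was 10.5%, against 5.79% of all 14298 genes tested by the same rule (2.52% higher and 3.27% lower). IFI35 and HERC5 rose, and OASL and IFI16 fell. The median log2 ratio of the members, from FPKM with 1 added, was 0.07, against 0.0087 over all measured genes, with 21 members above 0 and 17 below. At an unadjusted p under 0.05 there were 14 of 38 (36.8%, against 14.4% of all genes), 7 higher and 7 lower. The members were chosen with earlier results of these data known, so these shares are not a test of the set.

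In the libraries labelled shRNA95, 3 of the 38 measured members changed, a share of 7.89% against 5.06% of all 14200 genes tested (3.06% higher and 2% lower). ISG15 and IFI35 rose, and HERC6 fell, with a q just under the threshold. The median log2 ratio was 0.14, against 0.032 over all genes, with 24 members above 0 and 14 below. It was 0.03 without the members whose deposited locus holds another gene and 0.04 without the near-identical IFITM1, IFITM2 and IFITM3. At an unadjusted p under 0.05 there were 11 of 38 (28.9%, against 13.3% of all genes), 7 higher and 4 lower. The same limit from the choice of members holds for these shares. Because both tables use the same control libraries, the values of a member in them are given side by side and the calls made in both are not counted as independent. Of the 38 members, 21 have a deposited locus of their own, and reads of the others may be shared with overlapping genes.

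**Figure D3:**
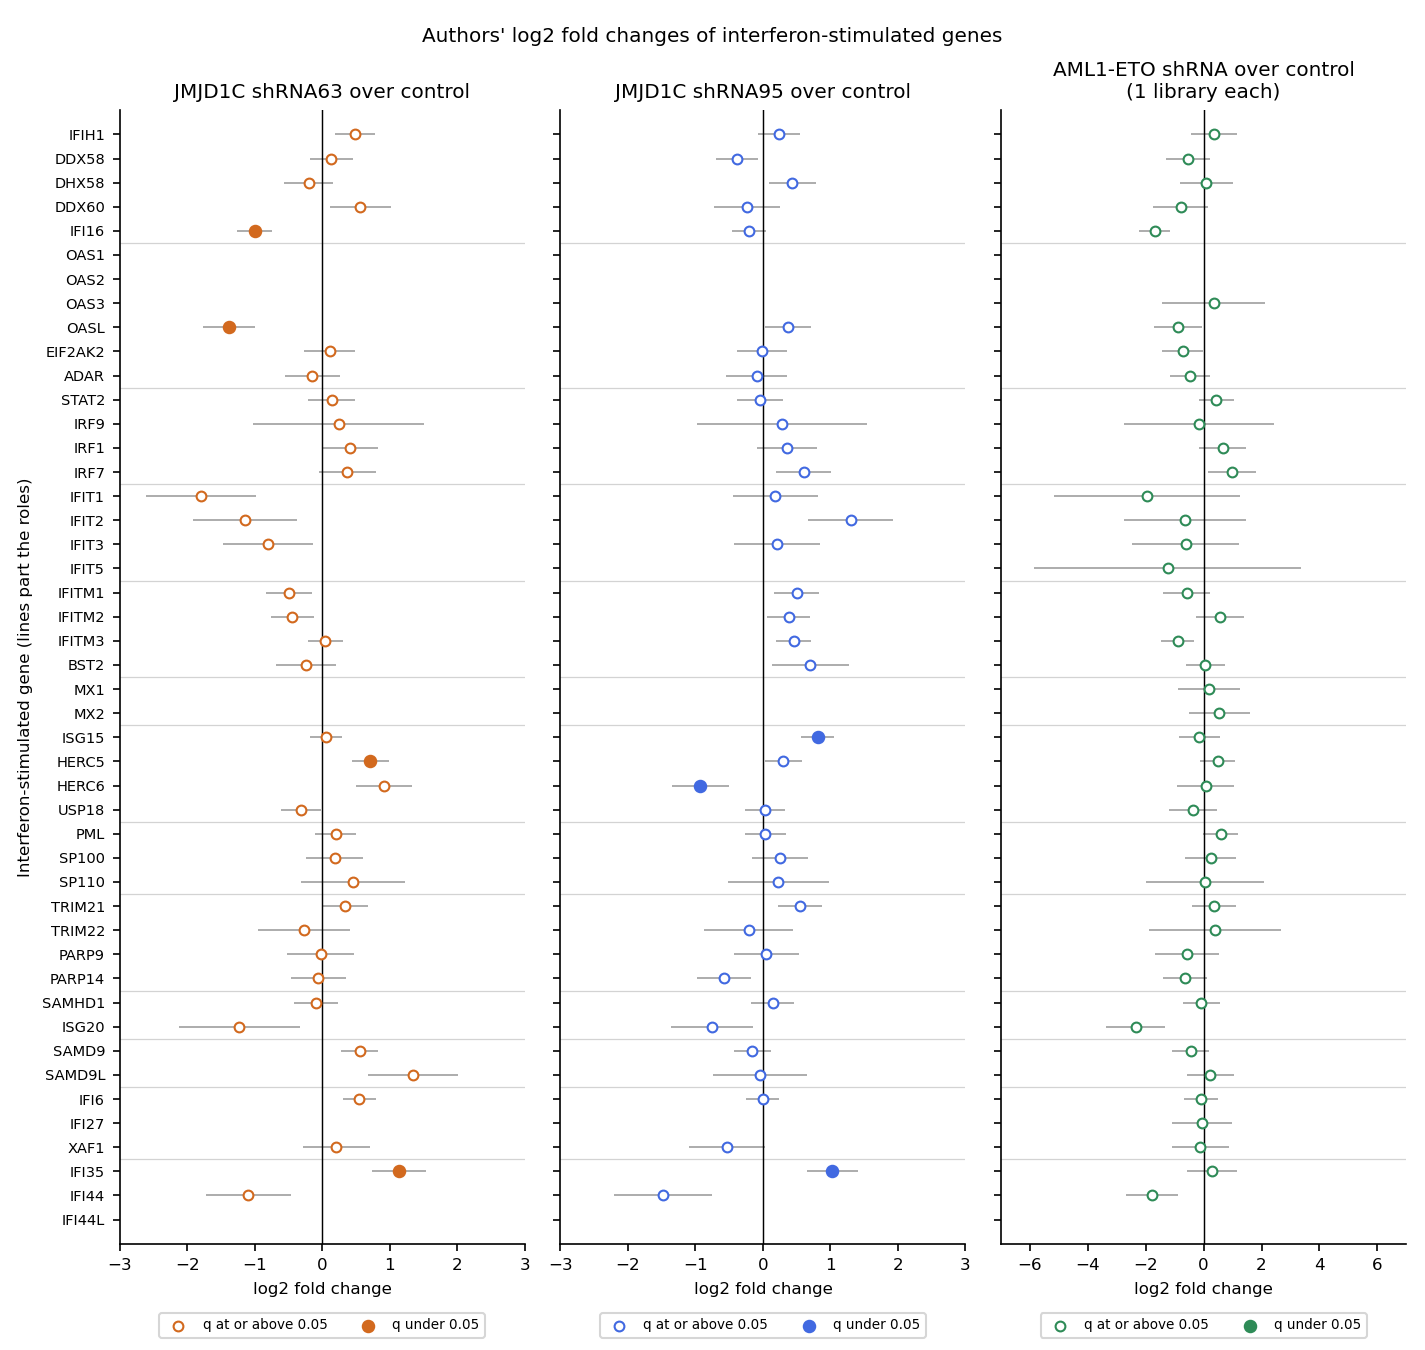
The authors' log2 fold changes of the members, with the error as a bar to each side, for shRNA63 (left), shRNA95 (middle) and AML1-ETO shRNA (right, on a wider axis), each over its control; filled circles have a q-value under 0.05, and members without a point were not measured or not tested. IFI35 is filled in both JMJD1C panels, and no member is filled in the AML1-ETO panel.

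Among the 5 sensors, IFI16, which detects foreign and damaged DNA in the nucleus and cytoplasm, was the one called. IFI16 (chromosome 1, 158969758 to 159024945, hg19) fell to 47.0 FPKM with shRNA63, against 94.2 FPKM in the control group. Its log2 fold change was -1.002 (error 0.26, q = 0.00214) in the authors' deposited table. In the shRNA95 libraries IFI16 was at 79.0 FPKM, against 91.3 FPKM in the control group, a log2 fold change of -0.21 (error 0.25, q = 0.856) in the authors' deposited table. The RNA helicases showed no call with either hairpin. IFIH1, the MDA5 sensor of long double-stranded RNA, was at 3.35 FPKM with shRNA63 against 2.39 FPKM in controls, and at 2.72 FPKM with shRNA95 against 2.32 FPKM in controls. DDX58, which encodes the RIG-I sensor of short RNA ends, was at 2.44 FPKM with shRNA63 against 2.22 FPKM in controls, and at 1.65 FPKM with shRNA95 against 2.15 FPKM in controls. DHX58, the regulatory helicase LGP2, stayed between 1.94 and 2.91 FPKM in all groups. DDX60, a helicase that acts with RIG-I, was at 6.96 FPKM with shRNA63 against 4.70 FPKM in controls, with a q of 0.533 in the authors' deposited table.

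Of the enzymes that act on double-stranded RNA, only OASL, EIF2AK2 and ADAR were measured. OASL, an enzymatically inactive relative of the oligoadenylate synthetases that enhances RIG-I signalling, lies at chromosome 12, 121458121 to 121477045 (hg19). It fell to 0.684 FPKM with shRNA63, against 1.78 FPKM in the control group, a log2 fold change of -1.38 (error 0.39, q = 0.00214) in the authors' deposited table. With shRNA95 OASL was at 2.23 FPKM, against 1.73 FPKM in the control group, and its log2 fold change of 0.37 (error 0.35, q = 0.608) in the authors' deposited table was not called. These are low levels, under 3 FPKM in every group. In the shRNA63 table only the control value of OASL reached 1 FPKM, so by that limit it could be counted only as a fall. EIF2AK2, the kinase PKR that stops translation on double-stranded RNA, was at 21.9 FPKM with shRNA63 against 20.3 FPKM in controls, and at 19.5 FPKM with shRNA95 against 19.7 FPKM in controls. Neither EIF2AK2 nor ADAR was called with either hairpin. OAS1, OAS2 and OAS3, which make the messenger that activates RNase L, share 1 deposited locus, so their reads may not be separable; their values were at most 0.546 FPKM.

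None of the transcription factors among the members was called with either hairpin. STAT2 was at 18.9 FPKM with shRNA63 against 17.1 FPKM in controls, and at 16.0 FPKM with shRNA95 against 16.5 FPKM in controls. IRF9, the DNA-binding partner of STAT2, was at 7.44 FPKM with shRNA63 against 6.29 FPKM in controls, and at 7.42 FPKM with shRNA95 against 6.10 FPKM in controls. IRF9 shares its locus with PSME2 and RNF31 and has an error of 1.27 (shRNA63) and 1.26 (shRNA95) in the authors' deposited tables. IRF1, a factor induced by interferon gamma, was at 6.45 FPKM with shRNA63 against 4.85 FPKM in controls, and at 6.03 FPKM with shRNA95 against 4.70 FPKM in controls. IRF7, which drives interferon alpha genes, was at 2.61 FPKM with shRNA63 against 2.01 FPKM in controls. With shRNA95, IRF7 was at 2.97 FPKM against 1.95 FPKM in controls, a log2 fold change of 0.60 (error 0.41, q = 0.395) in the authors' deposited table.

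The IFIT genes, whose products bind viral RNA and block its translation, had values that pointed opposite ways for the hairpins, but none was called. IFIT1 was at 1.45 FPKM with shRNA63, against 5.04 FPKM in controls, a log2 fold change of -1.80 (error 0.81, q = 0.0665) in the authors' deposited table. With shRNA95, IFIT1 was at 5.55 FPKM, against 4.88 FPKM in controls. IFIT2 was at 1.002 FPKM with shRNA63, against 2.22 FPKM in controls, with a log2 fold change of -1.15 (error 0.77, q = 0.301) in the authors' deposited table. With shRNA95 IFIT2 was at 5.27 FPKM, against 2.15 FPKM in controls, a log2 fold change of 1.30 (error 0.63, q = 0.104) in the authors' deposited table. IFIT3 was at 2.02 FPKM with shRNA63 against 3.53 FPKM in controls, and at 3.96 FPKM with shRNA95 against 3.42 FPKM in controls. All 3 measured IFIT genes were below their controls with shRNA63 and above them with shRNA95. They stand in 1 deposited locus of 9 genes, with IFIT5 and LIPA among them, and their errors of 0.63 to 0.81 are larger than those of most members.

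The restriction factors of the membrane were also not called. IFITM1 was at 15.0 FPKM with shRNA63 against 21.0 FPKM in controls, and at 28.8 FPKM with shRNA95 against 20.4 FPKM in controls. IFITM2 was at 13.2 FPKM with shRNA63 against 18.0 FPKM in controls, and at 22.7 FPKM with shRNA95 against 17.4 FPKM in controls. IFITM1, IFITM2 and IFITM3 are near-identical copies, and the first pair shares a locus, so reads may have been split between them. BST2, the tetherin that holds budding virions on the cell, was at 21.8 FPKM with shRNA63 against 25.8 FPKM in controls. With shRNA95, BST2 was at 40.6 FPKM, against 24.97 FPKM in controls, a log2 fold change of 0.70 (error 0.57, q = 0.468) in the authors' deposited table.

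Of the 4 genes of the ISG15 system, 1 was called with shRNA63 (5.79% of all genes were) and 2 with shRNA95 (5.06% of all genes), 1 of these at a q just under the threshold. ISG15 is a ubiquitin-like protein that is joined to other proteins, HERC5 is the ligase that joins it in human cells, and USP18 removes it and also damps the interferon receptor. ISG15 (chromosome 1, 948803 to 949920, hg19) rose to 14.5 FPKM with shRNA95, against 8.28 FPKM in controls, a log2 fold change of 0.81 (error 0.24, q = 0.00216) in the authors' deposited table. With shRNA63 ISG15 was at 8.86 FPKM, against 8.54 FPKM in controls, a log2 fold change of 0.05 (error 0.24, q = 0.999) in the authors' deposited table. HERC5 (chromosome 4, 89378268 to 89427314, hg19) rose to 15.2 FPKM with shRNA63, against 9.26 FPKM in controls, a log2 fold change of 0.71 (error 0.27, q = 0.00849) in the authors' deposited table. With shRNA95 HERC5 was at 11.0 FPKM, against 8.98 FPKM in controls, a log2 fold change of 0.30 (error 0.27, q = 0.656) in the authors' deposited table. The difference between hairpins did not pass for either gene: for HERC5 it was 0.42 (error 0.39, unadjusted p = 0.279, adjusted p = 0.99996), and the adjusted p for ISG15 was 0.759, from the authors' deposited tables. The deposited HERC5 locus also holds AC083829.1. HERC6 (chromosome 4, 89299891 to 89364263, hg19), which carries out this ligation in mice, fell to 1.22 FPKM with shRNA95, against 2.32 FPKM in controls. Its log2 fold change was -0.93 (error 0.42, q = 0.0499536) in the authors' deposited table, so the call lies only just under the threshold of 0.05. With shRNA63 HERC6 was at 4.51 FPKM, against 2.39 FPKM in controls, a log2 fold change of 0.92 (error 0.41, q = 0.0734) in the authors' deposited table. USP18 was at 1.51 FPKM with shRNA63 against 1.88 FPKM in controls, and at 1.86 FPKM with shRNA95 against 1.82 FPKM in controls.

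The nuclear body genes PML, SP100 and SP110 were not called. PML, the scaffold of nuclear bodies that hold viral genomes silent, was at 41.8 FPKM with shRNA63 against 36.4 FPKM in controls, and at 36.2 FPKM with shRNA95 against 35.3 FPKM in controls. SP100, a chromatin-binding partner of PML, stayed between 12.7 and 15.1 FPKM in all groups, and SP110, which shares a locus with SP140, between 1.78 and 2.50 FPKM. The TRIM and PARP genes were not called either. TRIM21, an antibody receptor of the cytosol and ubiquitin ligase, was at 7.69 FPKM with shRNA95 against 5.24 FPKM in controls, with a q of 0.200 in the authors' deposited table. PARP14, a mono-ADP-ribosyltransferase, was at 4.88 FPKM with shRNA95 against 7.29 FPKM in controls, with a q of 0.338 in the authors' deposited table. TRIM22, which shares its locus with TRIM5 and olfactory receptor genes, and PARP9, which shares one with its partner DTX3L, stayed between 4.19 and 5.11 FPKM.

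SAMHD1, which breaks down deoxynucleotides, was at 8.55 FPKM with shRNA63 against 9.14 FPKM in controls, and at 9.77 FPKM with shRNA95 against 8.86 FPKM in controls. ISG20, an exonuclease that degrades viral RNA, was at 1.08 FPKM with shRNA63 against 2.54 FPKM in controls, with a log2 fold change of -1.23 (error 0.90, q = 0.171) in the authors' deposited table. With shRNA95 ISG20 was at 1.46 FPKM against 2.46 FPKM in controls, with a q of 0.405 in the authors' deposited table. ISG20 was thus below its control in both tables without a call. SAMD9 and SAMD9L, neighbours on chromosome 7 that inhibit translation and cell growth and are mutated in inherited bone marrow failure, came closest to a call with shRNA63. SAMD9L was at 3.99 FPKM with shRNA63, against 1.57 FPKM in controls, a log2 fold change of 1.35 (error 0.67, q = 0.0551) in the authors' deposited table. SAMD9 was at 3.34 FPKM with shRNA63, against 2.28 FPKM in controls, a log2 fold change of 0.55 (error 0.27, q = 0.0612) in the authors' deposited table. With shRNA95 neither came near a call: SAMD9L was at 1.48 FPKM against 1.52 FPKM in controls, and SAMD9 at 1.98 FPKM against 2.21 FPKM in controls.

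IFI6, a mitochondrial and endoplasmic reticulum protein that protects cells from death, was at 32.1 FPKM with shRNA63 against 21.9 FPKM in controls, with a q of 0.0629 in the authors' deposited table. In the shRNA95 table IFI6 was at 21.2 FPKM in both groups. XAF1, an antagonist of an apoptosis inhibitor, stayed between 0.830 and 1.43 FPKM. IFI35, a small leucine zipper protein found in the cytoplasm and the nucleus, was the one member called with both hairpins. IFI35 (chromosome 17, 41158742 to 41166473, hg19) rose to 7.53 FPKM with shRNA63, against 3.43 FPKM in controls, a log2 fold change of 1.13 (error 0.40, q = 0.00554) in the authors' deposited table. It rose to 6.78 FPKM with shRNA95, against 3.33 FPKM in controls, a log2 fold change of 1.03 (error 0.38, q = 0.0133) in the authors' deposited table. Both values were more than 2 times their control. IFI44, a cytoplasmic antiviral protein, was at 0.461 FPKM with shRNA95 against 1.28 FPKM in controls, a log2 fold change of -1.48 (error 0.73, q = 0.0697) in the authors' deposited table.

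Whether the hairpins differed from each other was tested for each gene by subtracting the shRNA95 from the shRNA63 log2 fold change and dividing by the root of the summed squared errors. The two-sided normal p-values were adjusted by the Benjamini-Hochberg method over 14414 genes. None of the 38 members passed at an adjusted p of 0.05, against 157 of 14414 genes (1.09%), and 6 had an unadjusted p under 0.05 (15.8%, against 5.56% of all genes). Here too the members were chosen with earlier results known, so the share is not a test of the set. OASL had a difference of -1.75 (error 0.52, adjusted p = 0.0635) and HERC6 one of 1.84 (error 0.59, adjusted p = 0.114) in the authors' deposited tables. The others of the 6 were IFIT2 at -2.44 (error 0.995), IFITM1 at -0.99 (error 0.48), IFI16 at -0.79 (error 0.36) and ISG15 at -0.76 (error 0.36) in the authors' deposited tables. Of the 6, only HERC6 was higher with shRNA63 than with shRNA95. For IFI35 the difference was 0.11 in the authors' deposited tables, with a nominal 95% interval of -0.98 to 1.19. The tables therefore do not show whether the hairpins moved IFI35 by the same amount. This test takes the errors of the tables as independent although they share controls, which makes the errors of the difference too wide. The deposited p-values are also smaller than these errors give. The intervals are therefore wide, and a member that did not pass is not shown to be alike with both hairpins. In 2 other settings 4 members (IFIT2, OASL, HERC6 and IFI16) passed. Errors were scaled to the deposited p, or a shared control part was removed whose size was assumed and not estimated. These settings shrank the errors almost equally (IFIT2 error 0.705 and 0.704), so they are not separate checks. Under those settings 4.36% and 4.38% of all genes passed.

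**Figure D4:**
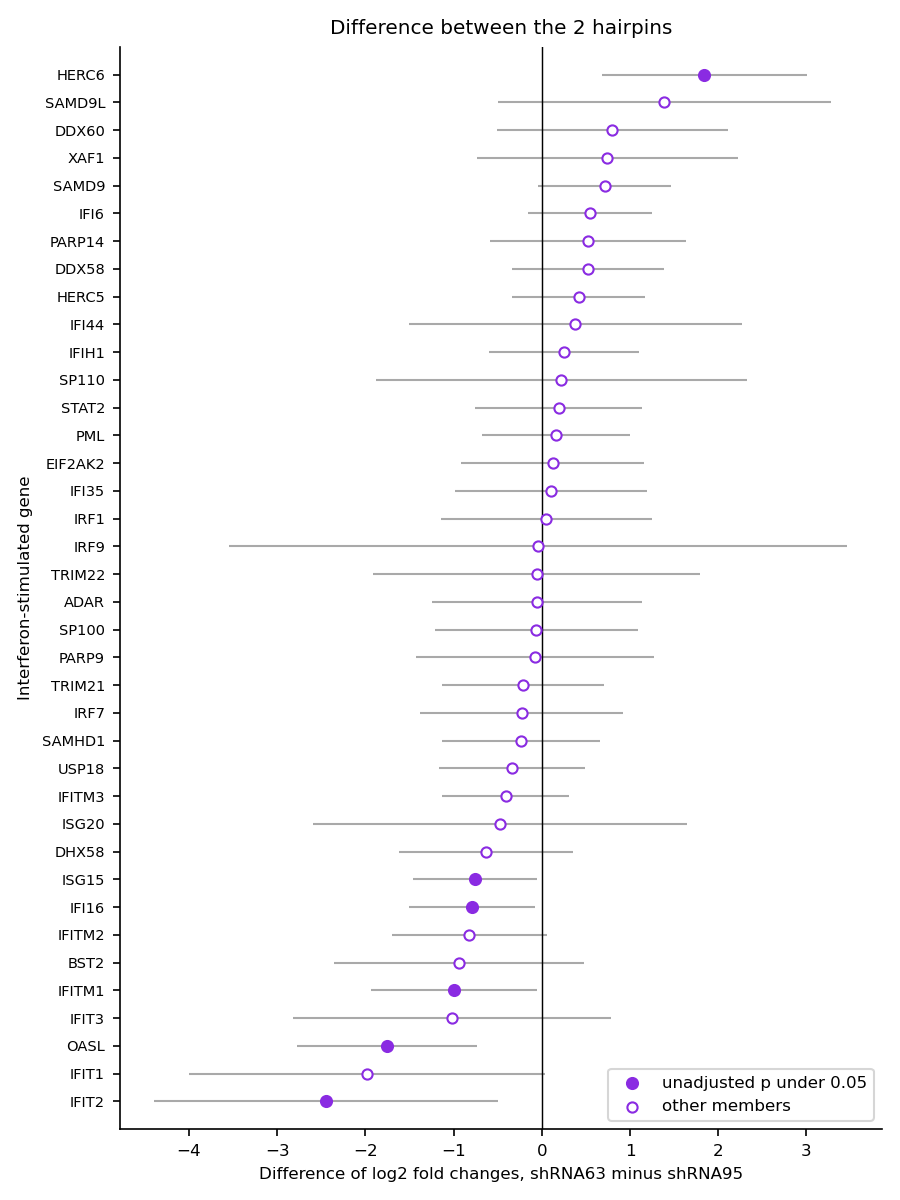
Difference of the authors' log2 fold changes (shRNA63 minus shRNA95) for the 38 measured members, ordered by size. Bars are nominal 95% intervals from errors taken as independent, which are too wide. Filled circles have an unadjusted p under 0.05, and none passed after adjustment. HERC6 stands at the upper end, and IFIT2, IFIT1 and OASL at the lower end.

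Members with and without an ISRE core match were set side by side, without a test. Of 17 measured members with a match 1 was called with shRNA63 (HERC5) and 1 with shRNA95 (ISG15), with median log2 ratios of 0.04 and 0.15. Of 13 measured members with a window and no match, 2 were called with each hairpin, with medians of 0.17 and -0.02. Over all genes, 5.79% were called with shRNA63 and 5.06% with shRNA95. The counts of called members are too small to compare with these shares, and nothing is read from them. HERC5 and HERC6, whose windows with and without matches are printed above, were both above their controls with shRNA63, where only HERC5 was called. With shRNA95 HERC5 was at 122.9% of its control without a call, and HERC6 at 52.5% of its control with one.

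With AML1-ETO shRNA, none of the 43 members tested was called in the authors' deposited table, against 0.373% of 21727 genes (0.198% higher and 0.175% lower). That table compares 1 library with 1 library, so it has no replicate check and its p-values compare those libraries, not the conditions. RUNX1T1, whose reads come from the ETO part of the fusion, had a log2 fold change of -1.04 (error 0.87, q = 0.9996) in the authors' deposited table. The median log2 fold change of the members was -0.08, against -0.014 over all tested genes of the authors' deposited table, with 19 above 0 and 24 below. At an unadjusted p under 0.05 there were 2 members, 4.65% against 4.95% of all genes, in the authors' deposited table. IFI16 had -1.70 (error 0.55, q = 0.260) and ISG20 had -2.35 (error 1.02, q = 0.484) in the authors' deposited table, neither of them called. The members called with a JMJD1C hairpin were at 0.30 for IFI35, 0.48 for HERC5, -0.88 for OASL, -0.15 for ISG15 and 0.07 for HERC6 in the authors' deposited table, with errors of 0.61 to 0.99. By role, all 4 IFIT genes were below 0, from IFIT1 at -1.96 to IFIT3 at -0.62, with errors of 1.85 to 4.62 in the authors' deposited table. Errors of that size do not separate these IFIT values from 0. The 4 transcription factors were at 0.99 for IRF7 (error 0.83), 0.65 for IRF1 (error 0.82), 0.43 for STAT2 (error 0.60) and -0.16 for IRF9 (error 2.60) in the authors' deposited table. Of the members that were not measured in the JMJD1C tables, MX1 had 0.19 (error 1.07), MX2 had 0.54 (error 1.06) and IFI27 had -0.06 (error 1.04) in the authors' deposited table. IFI44, without a call, was at -1.77 (error 0.90, q = 0.775) in the authors' deposited table.

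The ligands, receptors, kinases, inhibitors and further target genes of interferon signalling were read from a list of 92 genes that are no members. None of the 9 interferon ligands listed was measured: IFNA1, IFNA2, IFNE, IFNK, IFNG, IL28A, IL28B and IL29 were listed at 0 in every group, and IFNB1 at 0.091 FPKM with shRNA95 and at 0 elsewhere. The receptor chains IFNAR1 and IFNAR2 of the type I interferons were present and not called. IFNAR1 was at 23.7 FPKM with shRNA63 against 23.5 FPKM in controls, and at 19.5 FPKM with shRNA95 against 22.8 FPKM in controls. IFNAR2 was at 13.2 FPKM with shRNA63 against 15.0 FPKM in controls, and at 11.8 FPKM with shRNA95 against 14.5 FPKM in controls. The kinases JAK1, JAK2 and TYK2 were not called. JAK1 was at 15.0 FPKM with shRNA63 against 22.5 FPKM in controls, with a q of 0.213 in the authors' deposited table.

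Of the 58 measured genes of that list 3 rose and 0 fell with shRNA63 (5.17%, against the 5.79% of all genes), with a median log2 ratio of 0.09. TDRD7, a tudor protein that restrains viral replication, rose to 3.91 FPKM with shRNA63, against 1.57 FPKM in controls. LAMP3, a lysosomal membrane protein, rose to 1.55 FPKM against 0.664 FPKM in controls, and GBP3, an interferon-gamma-induced GTPase, to 1.28 FPKM against 0.358 FPKM in controls. LAMP3 and GBP3 reached the limit of 1 FPKM only in the shRNA63 group. By that limit each of them could be counted only as a rise. In the libraries labelled shRNA95 4 of 56 rose and 1 fell (8.93%, against the 5.06% of all genes), with a median of -0.03. TDRD7 rose to 2.98 FPKM with shRNA95, against 1.52 FPKM in controls, a log2 fold change of 0.97 (error 0.31, q = 0.00216) in the authors' deposited table. PTPN6, a phosphatase that damps JAK signalling, rose to 120.7 FPKM with shRNA95, against 41.2 FPKM in controls. LY6E, a membrane protein that alters virus entry, rose to 205.7 FPKM with shRNA95, against 106.9 FPKM in controls. UNC93B1, which carries Toll-like receptors to endosomes, rose to 27.6 FPKM with shRNA95, against 12.4 FPKM in controls. IRF5, a factor that drives inflammatory cytokine genes, fell to 22.9 FPKM with shRNA95, against 37.4 FPKM in controls. With AML1-ETO shRNA none of the 67 tested genes of that list was called in the authors' deposited table, where 0.373% of all genes were. At an unadjusted p under 0.05 there were 5 (7.46%, against 4.95% of all genes) in the authors' deposited table.

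**Figure D5:**
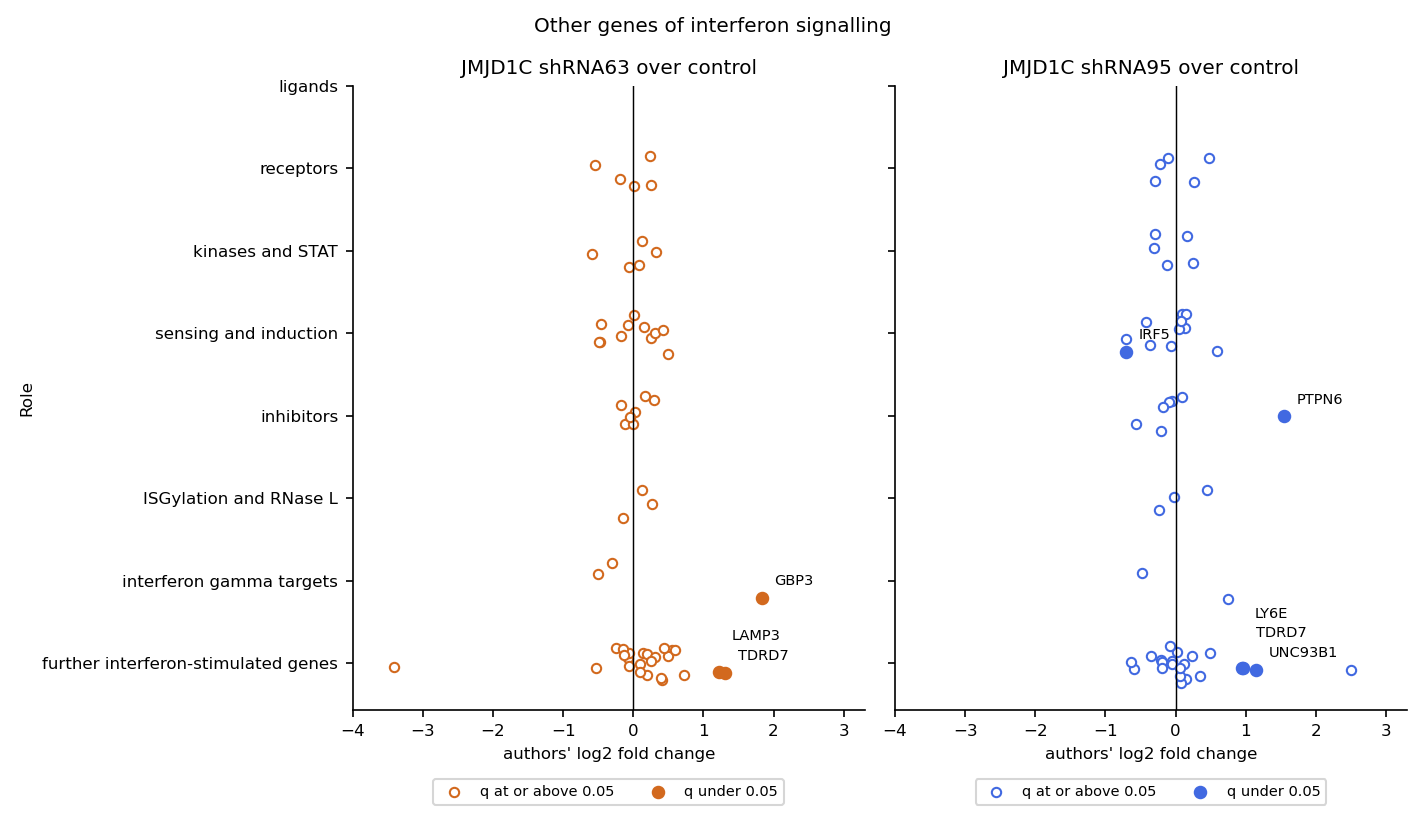
The authors' log2 fold changes of measured interferon signalling genes outside the 46, by role, for shRNA63 (left) and shRNA95 (right), each over Control shRNA; each circle is a gene, filled and named where its q-value was under 0.05, and vertical offsets within a role only separate the points. TDRD7 is filled in both panels, and no receptor or kinase gene is filled.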

How the data were processed

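RNA libraries of 3 groups, 2 each, entered as the authors' combined group values. The submitters' processing notes name TopHat2 2.0.8b, Cuffdiff 2.1.1 and build hg19. The authors deposited FPKM per group, scaled within each table, so levels were compared only within a table. Controls differ by a median factor of 1.03 between the JMJD1C tables (shRNA63 over shRNA95). Used as deposited were also the log2 fold change, the test statistic, which is a score, and the p-value and q-value. The AML1-ETO table has 2 FPKM columns from another series, which were left out, so the FPKM limit could not be applied there.

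Library depth was not measured because no counts were used, and the relative depths given above are estimates from genes with very low values. The sources used here do not give the strandedness. Errors were computed as the log2 fold change over the statistic, and the 10th percentile served as their floor in the difference between hairpins. That difference was also run on simulated data with independent errors of the assumed size. Such data cannot show the effect of shared controls or of errors that are wrong in size. For both JMJD1C tables the deposited p-value is smaller than that statistic gives by a factor of 1.41 on the normal deviate at the median. Log2 ratios for medians used a pseudocount of 1 FPKM. They understate the change of low genes. The smallest deposited p was 5e-05, which gives the genes at that limit the same q.

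Members and lists were chosen with earlier results of these data known. Genes are named with values if called, not measured, listed at 0, highest in controls, or sharing a locus or near-identical copy, and other members by role. Deposited locus starts count from 0 and are given here from 1. Promoters come from RefSeq (GRCh38.p14), where DDX58 is listed as RIGI; DHX58, OAS2, OASL, IRF7, IFIT2, IFITM2, MX2, USP18, PML and TRIM22 had no entry. The name DHX58 has 2 identifiers, of which the one on the main chromosome was used. Python 3.11.15, pandas 2.3.3, scipy 1.17.1 and matplotlib 3.10.9 were used. Alternatives changed the q or FPKM limit, the pseudocount, the centring, the errors, and the members with shared loci.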

Additional observations from a re-analysis of the deposited data

How the results depend on the processing

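The counts moved mainly with the threshold. With shRNA63 9 members were called at q under 0.10, against 4. At an unadjusted p under 0.05 there were 14 (36.8%, against 14.4% of all genes). With shRNA95 there were 1 at q under 0.01 and 1 with a log2 fold change of at least 1 in size, against 3. An unadjusted p under 0.05 gave 11 (28.9%, against 13.3% of all genes). The share of all genes at q under 0.10, q under 0.01 or that fold change was not computed. Nothing is therefore read from the member counts at those limits. In the authors' deposited AML1-ETO table an unadjusted p under 0.05 gave 2 (4.65%, against 4.95% of all genes), where q under 0.05 gave 0. For the other genes of the pathway it gave 11 of 58 with shRNA63 (18.97%, against 14.4% of all genes), 12 of 56 with shRNA95 (21.4%, against 13.3%) and 5 of 67 with AML1-ETO shRNA (7.46%, against 4.95%), where q under 0.05 gave 3, 5 and 0. The shRNA95 median was 0.246 with a minimum of 5 FPKM, 0.0338 without members that share a locus and 0.0402 without IFITM1, IFITM2 and IFITM3, against 0.139. The difference between hairpins passed for 4 members with errors scaled to the deposited p, where 4.36% of all genes passed. With an assumed shared control part removed it passed for 4, where 4.38% of all genes passed. Those 2 settings shrank the errors almost equally. At an unadjusted p under 0.05 the difference passed for 6 (15.8%, against 5.56% of all genes). Of the 7 calls of single members, OASL and HERC6 fall away at 5 FPKM, IFI35 (shRNA95) and HERC6 at q under 0.01, and ISG15, HERC5 and HERC6 at a log2 fold change of 1. No paired analysis was possible because each table gives group values only, and leaving out a library could not be run for the same reason. Low levels limit what can be seen: 8 members lie under 1 FPKM in every group.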
